A study of Mus musculus with 12 samples.

Results

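The circadian clock genes described here are the 10 transcripts Arntl, Npas2, Per1, Per2, Per3, Ciart, Nr1d1, Nr1d2, Dbp and Tef. They were chosen by name, and each matched 1 of the 55401 gene identifiers in the deposited tables. In mouse cerebellum none of the 10 passed the test for a difference between genotypes or with treatment, with adjusted p-values of 0.616 or more by edgeR. Library 411 had the lowest level of 9 of them and library 409 the highest of 4, and both libraries belonged to the same group. The share of all genes with their extremes in these libraries was not counted.

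The RNA came from the cerebellum of 12 mice, with 1 library per mouse and 4 mice in each of 3 groups. WT DMSO mice (animals 413, 425, 426 and 431) were wild type and received the vehicle, dimethyl sulfoxide. Het DMSO mice (409, 411, 420 and 429) were heterozygous for the Atxn1 154Q/2Q knock-in, an expanded glutamine repeat in the gene's own locus that serves as a model of spinocerebellar ataxia type 1, and received the same vehicle. Het Hit 2 mice (410, 421, 422 and 430) had that genotype and received the compound Hit 2 at 25 mg/ml in DMSO. In all 3 groups the DMSO dose stayed below 4 ml/kg, and injections went into the peritoneum daily for 5 days and, after 2 rest days, for another 5 days, from 18 weeks of age. Per the labels, every injection fell between 8 and 9 am and tissue was taken after 3 pm on the day of the last one, at 20 weeks, after urethane anaesthesia and perfusion. The light schedule and the hour at which each mouse was sampled are not given in the sources used here. Wild-type mice given Hit 2 were not analysed here, so the compound's effect can be described within the heterozygous genotype alone.

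The mammalian clock is a transcriptional loop that runs in nearly every tissue, the cerebellum included. ARNTL, also called BMAL1, pairs with CLOCK or with NPAS2 and activates genes through E-boxes, among them the Per genes, Ciart, Nr1d1, Nr1d2, Dbp and Tef. PER proteins, with CRY partners, and CIART block that activation, while the nuclear receptors NR1D1 and NR1D2 repress Arntl and Npas2 through ROR elements. DBP and TEF carry the rhythm to other genes through D-boxes. The activators' transcripts and those of their targets therefore peak at opposite times of day, and Per1 and Per2 also respond within hours to glucocorticoids and to signalling through cAMP.

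Start regions of some of the 10 genes hold these elements, and they are printed here because the transcripts measured below are known to be driven through them. RefSeq start regions on GRCm38.p6, a build other than that of the counts, were in hand for 9 of the 10 genes (12 start sites). The sequences below are the 250 bases before a start, 5′ to 3′ on the gene's strand. Capitals mark E-boxes (CACGTG) in Ciart at chr3:95882229-95882478 on the minus strand and in Per1 at chr11:69098699-69098948 on the plus strand, a variant E-box (CACGTT, here read as its reverse complement AACGTG) in Nr1d1 at chr11:98775378-98775627 on the minus strand, and D-boxes (TTATGTAA) in Per3 at chr4:151044666-151044915 on the minus strand. The last line is a 30-base stretch after the Arntl start, positions 21 to 50 counted from the start, at chr7:113207531-113207560 on the plus strand, with a ROR element (TAGGTCA) in capitals.
Ciart: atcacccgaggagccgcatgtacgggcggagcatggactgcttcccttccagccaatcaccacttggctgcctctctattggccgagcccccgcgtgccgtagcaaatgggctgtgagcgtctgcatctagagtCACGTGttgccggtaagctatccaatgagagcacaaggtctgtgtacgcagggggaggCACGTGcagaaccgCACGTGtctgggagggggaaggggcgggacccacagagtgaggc
Per1: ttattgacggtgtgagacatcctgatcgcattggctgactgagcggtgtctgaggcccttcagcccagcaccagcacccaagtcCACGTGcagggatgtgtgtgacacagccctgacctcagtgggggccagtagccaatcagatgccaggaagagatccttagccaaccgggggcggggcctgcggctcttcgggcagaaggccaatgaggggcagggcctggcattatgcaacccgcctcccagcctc
Nr1d1: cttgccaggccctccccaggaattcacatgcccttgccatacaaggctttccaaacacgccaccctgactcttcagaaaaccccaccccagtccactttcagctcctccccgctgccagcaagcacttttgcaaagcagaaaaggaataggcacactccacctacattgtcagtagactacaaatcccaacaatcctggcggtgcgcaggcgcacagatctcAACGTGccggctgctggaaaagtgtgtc
Per3: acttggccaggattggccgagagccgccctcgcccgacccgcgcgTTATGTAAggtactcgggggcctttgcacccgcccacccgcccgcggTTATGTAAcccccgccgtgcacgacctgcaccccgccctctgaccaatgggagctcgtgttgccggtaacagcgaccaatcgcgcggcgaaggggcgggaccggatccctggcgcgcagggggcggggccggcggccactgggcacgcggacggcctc
Arntl: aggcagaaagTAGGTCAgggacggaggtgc

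Searched on both strands over windows from 250 bases before to 50 after the start, the E-box was in 4 of the 12 windows, belonging to 3 genes, against 7.15% of 32851 windows of the same length in the mouse table. Ciart held 3 copies, at positions -116, -58 and -44. Per1 held 1 copy at -166 in the upstream of its start sites in the table, and Tef held 1 copy in each of its windows, at -127 and -138. The variant E-box of Nr1d1 lay at -28, and 4.68% of all windows held that motif. The D-box was present at -205 and -158 in Per3, against 0.938% of all windows. The ROR element lay at 31 in Arntl, against 2.61% of all windows. A second D-box form (TTACGTAA) and the cAMP response element (TGACGTCA) were in none of the 12 windows and in 0.119% and 1.79% of all windows. A match is a description of the letters in these windows.

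Each library held between 15855751 and 45265719 reads assigned to genes on the library's strand, and the 10 clock genes held between 71 reads (Npas2) and 20516 reads (Tef) per library. All 10 passed the filter on low counts that left 19378 genes to be tested. Levels are given as CPM, gene reads scaled to library sizes that were adjusted by edgeR's TMM factors. Granule and Purkinje cell markers placed all but 1 library in cerebellum. In these libraries 8 granule cell markers summed to between 4114 and 9702 CPM and 8 Purkinje cell markers to between 2861 and 6786 CPM. In library 411 these sums were 188 and 443 CPM, with the granule marker Gabra6 at 0.606 CPM and the Purkinje marker Pcp2 at 0.555 CPM. There 8 midbrain markers summed to 147 CPM against 24.3 to 71.0 CPM elsewhere. Of these 8 markers, 7 reached 1 CPM in 411, 6 in Het Hit 2 library 410 and 5 in Het Hit 2 library 430. In each of the other libraries 2 to 4 did. Oligodendrocyte markers summed to 6734 CPM in 411 and 5598 CPM in 410, the highest values. Whether 410 and 430 held tissue from outside the cerebellum was not tested. Library 409 stood apart by its mitochondrial share of 0.0795% of reads, against 1.85 to 2.81%. WT libraries 425 and 426 had Xist at 1393 and 1464 CPM, and no other library exceeded 0.290 CPM, so the female mice were all in the WT group. Markers of the pineal gland, a clock tissue next to the cerebellum, summed to between 0.933 and 9.44 CPM, with the highest value in library 411.

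Among the activators, Arntl was the gene whose WT and heterozygous levels lay farthest apart for its spread. Arntl stood at 52.8, 72.9, 72.2 and 66.0 CPM in WT DMSO libraries 413, 425, 426 and 431. In Het DMSO libraries 409, 411, 420 and 429 it stood at 57.5, 27.6, 62.5 and 51.8 CPM, and in Het Hit 2 libraries 410, 421, 422 and 430 at 42.2, 56.9, 54.4 and 56.5 CPM. Of the 4 WT libraries, 413 alone lay within the range of the heterozygous ones, and the highest values came from the female mice. The means were 66.0 ± 9.34 CPM in WT DMSO, 49.9 ± 15.5 CPM in Het DMSO and 52.5 ± 6.99 CPM in Het Hit 2 (SD, n = 4 each). The Het DMSO difference from WT was -0.40 on the log2 scale (95% interval -0.89 to 0.08), with an adjusted p of 0.616 by edgeR's quasi-likelihood test and an exact two-sided permutation p of 0.114. For Het Hit 2 against WT the Arntl difference was -0.33 (-0.81 to 0.15). The smallest exact p that 4 mice against 4 allow is 0.0286.

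With the 3 groups pooled, the Arntl levels moved with markers of several cell types, and were set against 8 markers for each type. Group means were not subtracted here, so a difference between groups and a shared movement within groups cannot be told apart. The summed Purkinje markers lay between 6508 and 6786 CPM in WT DMSO, between 443 and 5850 CPM in Het DMSO and between 2861 and 5694 CPM in Het Hit 2, so that on this sum WT and heterozygous libraries did not overlap. Astroglial markers likewise summed to 3456 to 3880 CPM in WT DMSO, 2517 to 3061 CPM in Het DMSO and 2701 to 2905 CPM in Het Hit 2. Of the 8 astroglial markers, 3 (Aldoc, Slc1a3 and Gdf10) had no overlap between WT and Het DMSO, as in 4.39% of all genes, and Aldoc alone averaged 1085 CPM in WT and 617 CPM in Het DMSO. Whether Aldoc came from astroglia alone in this tissue was not tested. For the other markers, Aqp4, Aldh1l1, Gja1, Slc1a2 and Gfap, the log2 differences were -0.24, 0.05, -0.04, -0.01 and -0.09. Over the 12 libraries Arntl and the Purkinje marker score, the markers' mean centred log2 CPM, had Pearson's r of 0.91 and Spearman's rho of 0.69, with permutation p-values of 0.000700 and 0.0156 and, over 60 such relations, adjusted p-values of 0.0210 and 0.235. Without the 2 libraries farthest from the median marker score r was 0.50. Over the 10 libraries other than 409 and 411, r was 0.82 and rho 0.68 (adjusted permutation p = 0.227 and 0.483). For the astroglial score r was 0.92 and rho 0.74 over 12 libraries (adjusted permutation p = 0.0204 and 0.235), r was 0.67 without the 2 libraries farthest from the median score, and over the 10 libraries r was 0.76 and rho 0.75 (adjusted permutation p = 0.270 and 0.483). Granule cell markers gave r of 0.85 and rho of 0.61 with Arntl over 12 libraries (adjusted permutation p = 0.0351 and 0.254), 0.14 without the 2 farthest libraries, and r of 0.64 over 10. Oligodendrocyte markers ran the other way, with r of -0.77 and rho of -0.59 (adjusted permutation p = 0.0337 and 0.266), -0.27 without the 2 farthest, and r of -0.60 over 10. In bulk tissue, fewer cells of a type and less RNA per cell cannot be told apart, and the part of any of these cell types in the Arntl values was not tested.

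Npas2, the activator that can stand in for CLOCK, was the least abundant member. It stood at 5.00, 7.07, 6.46 and 7.21 CPM in WT libraries 413, 425, 426 and 431, at 3.18, 10.8, 4.42 and 6.47 CPM in Het DMSO libraries 409, 411, 420 and 429, and at 6.66, 6.03, 4.99 and 6.90 CPM in Het Hit 2 libraries 410, 421, 422 and 430. Both the lowest and the highest of the 12 values were in the Het DMSO group, in 409 and 411. The log2 differences were -0.05 for the genotype, -0.02 for Hit 2 within heterozygotes and -0.07 for treated heterozygotes set against WT, with 95% intervals that reached from -0.76 to 0.68.

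**Figure D1:**
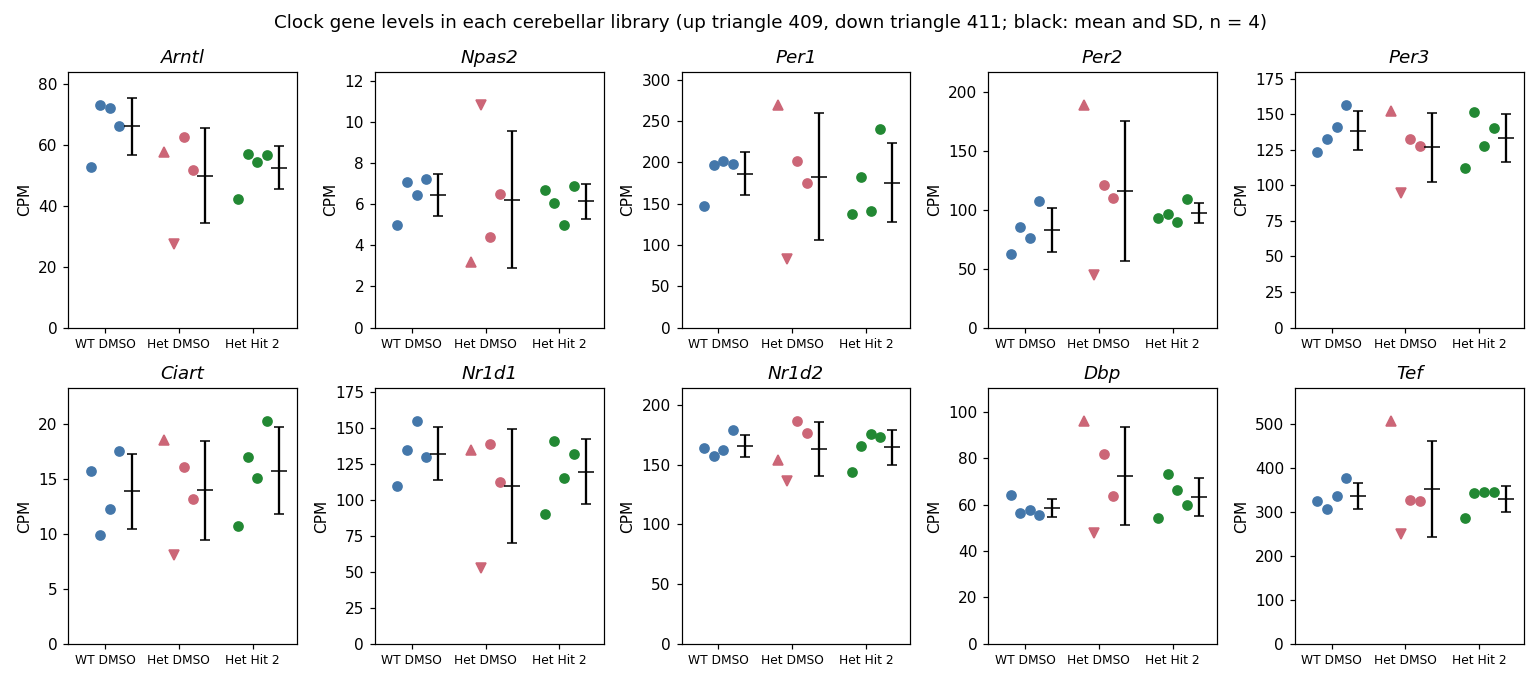
Level of each clock gene in CPM (vertical axis, from 0) in every library of the 3 groups (horizontal axis), with library 409 as an upward and 411 as a downward triangle and the mean and SD of 4 libraries in black. The groups overlap for all 10 genes, and the widest Het DMSO bars, as in Per2 (116 ± 59.1 CPM), have 409 and 411 at their ends.

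Of the Period genes, which encode the loop's main repressors, Per2 had the largest difference between Het DMSO and WT of the 10 clock genes, with the widest spread. Per2 stood at 62.8, 85.0, 76.2 and 108 CPM in WT libraries 413, 425, 426 and 431. In Het DMSO libraries 409, 411, 420 and 429 it stood at 189, 44.2, 121 and 109.7 CPM, so that this group held both the highest and the lowest of the 12 values. In Het Hit 2 libraries 410, 421, 422 and 430 it stood at 92.9, 96.3, 89.3 and 109 CPM, a narrow band inside the Het DMSO range. The means were 82.9 ± 18.9, 116 ± 59.1 and 96.9 ± 8.68 CPM (SD, n = 4 each). Het DMSO lay 0.48 above WT on the log2 scale (95% interval -0.23 to 1.20; adjusted p = 0.625 by edgeR), and Het Hit 2 lay at -0.26 relative to Het DMSO (-0.97 to 0.45; adjusted p = 0.898 by edgeR). Both Per2 differences move with single libraries of the Het DMSO group: without 411 they were larger, at 0.78 and -0.56, with unadjusted p-values of 0.00389 and 0.0234 and adjusted p-values of 0.620 and 0.630 by edgeR. Without library 409 they were 0.14 and 0.08.

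Per1, the Period gene with the most direct response to hormones and cAMP, stood at 148, 197, 202 and 198 CPM in WT libraries 413, 425, 426 and 431. It stood at 269, 83.4, 202 and 175 CPM in Het DMSO libraries 409, 411, 420 and 429, and at 138, 182, 141 and 240.5 CPM in Het Hit 2 libraries 410, 421, 422 and 430. Het Hit 2 thus held levels of Per1 both below and above every WT value, and the 3 group means, 186 ± 25.8, 182 ± 76.9 and 175 ± 47.8 CPM (SD, n = 4 each), lay within 0.09 of one another on the log2 scale. Per3 was steadier, at 124, 132, 141 and 156 CPM in WT, 152, 94.4, 132 and 127 CPM in Het DMSO and 112, 152, 128 and 140.2 CPM in Het Hit 2, in the same order of libraries. Its log2 differences were -0.13, 0.07 and -0.06.

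Ciart, which encodes a repressor of the ARNTL complex and holds the 3 E-boxes printed above, was measured at 15.7, 9.90, 12.2 and 17.5 CPM in WT libraries 413, 425, 426 and 431. In Het DMSO libraries 409, 411, 420 and 429 the values were 18.5, 8.08, 16.1 and 13.2 CPM, and in Het Hit 2 libraries 410, 421, 422 and 430 they were 10.7, 17.0, 15.1 and 20.2 CPM. The lowest WT values of Ciart belonged to the female mice 425 and 426. Its Het DMSO difference from WT was 0.01 (95% interval -0.59 to 0.61), and it was -0.25 in a fit with sex as a term (unadjusted p = 0.443 by edgeR).

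The nuclear receptor Nr1d1, the repressor of Arntl, stood at 109.8, 135, 155 and 130.0 CPM in WT libraries 413, 425, 426 and 431. It stood at 135, 52.9, 139 and 112.5 CPM in Het DMSO libraries 409, 411, 420 and 429 and at 90.1, 141, 115 and 132 CPM in Het Hit 2 libraries 410, 421, 422 and 430. Library 411 had the lowest level of Nr1d1, followed by 410, the highest came from WT library 426, and the 3 groups overlapped with or without 411. The log2 differences were -0.27 (95% interval -0.83 to 0.30), 0.12 (-0.44 to 0.69) and -0.15 (-0.71 to 0.42) for the genotype, for Hit 2 within heterozygotes, and for treated heterozygotes set against WT. Its paralogue Nr1d2 was the steadiest clock gene, at 157 to 179 CPM in WT DMSO, 136 to 186 CPM in Het DMSO and 143 to 175.5 CPM in Het Hit 2, and its 3 intervals, from -0.29 to 0.28 in all, were the narrowest of the 10.

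Among the output factors, Dbp, often the transcript with the deepest daily swing, stood at 64.3, 56.4, 57.9 and 55.5 CPM in WT libraries 413, 425, 426 and 431, the tightest WT set after Nr1d2. In Het DMSO libraries 409, 411, 420 and 429 it stood at 95.9, 47.6, 82.1 and 63.9 CPM, and in Het Hit 2 libraries 410, 421, 422 and 430 at 54.4, 73.3, 66.4 and 59.8 CPM. Libraries 409 and 420 lay above every WT value, 411 below, and 429 within. Het DMSO against WT gave 0.31 on the log2 scale (95% interval -0.10 to 0.72; adjusted p = 0.618 by edgeR; exact permutation p = 0.343), and Het Hit 2 against Het DMSO gave -0.19 (-0.60 to 0.22). Without library 411 these were 0.48 and -0.38, with unadjusted p-values of 0.00907 and 0.0319 and adjusted p-values of 0.620 and 0.630 by edgeR, and without 409 they were 0.14 and -0.02. Tef, its relative, had the highest CPM of the set, at 325, 307, 335 and 376 CPM in WT, 505, 249.5, 326 and 325 CPM in Het DMSO and 286, 342, 345 and 346 CPM in Het Hit 2, in the same order. Outside libraries 409, 411 and 410 the Tef values spanned 307 to 376 CPM.

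Levels of different genes can be ordered per length of transcript. In WT DMSO, with CPM divided by the exon length in kilobases, Nr1d1 (43.0 ± 5.99 CPM per kb) and Tef (42.7 ± 3.70) came first (SD, n = 4), their ranges overlapped, and Nr1d1 was above Tef in 4 of the 12 libraries. Per1 (33.1 ± 4.58) and Nr1d2 (30.6 ± 1.74) followed, also overlapping, with Per1 the higher in 7 of 12 libraries. Dbp (19.5 ± 1.32) stood clear of its neighbours in WT. Per3 (14.4 ± 1.44) and Per2 (14.2 ± 3.22) overlapped, as did Arntl (8.77 ± 1.24) and Ciart (6.13 ± 1.52). Npas2 (1.34 ± 0.211) was the least abundant in WT, below Ciart in 12 of 12 libraries. Per length, the targets Nr1d1, Tef and Per1 were thus above the activator Arntl in these WT samples, whose hour of sampling is known only as after 3 pm.

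The genotype comparison asked whether the knock-in shifted the clock. In Het DMSO against WT DMSO 0 of the 10 clock genes passed an adjusted p of 0.05, where 0.00516% of all 19378 genes did (1 gene). At an unadjusted p of 0.05 the counts were 0 of 10 against 7.11% of all genes, and groups that did not overlap were found in 0 of 10 against 4.39%. The members' log2 differences ran from -0.40 (Arntl) to 0.48 (Per2), with 4 positive and 6 negative and a median of -0.03, beside a median of 0.05 over all genes tested. Of the 10 intervals, 9 lay inside a 2-fold difference in either direction, and that of Per2 reached beyond it upward.

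For the compound, Het Hit 2 against Het DMSO, 0 of 10 clock genes passed an adjusted p of 0.05, as did 0% of all genes. The unadjusted counts were 0 of 10 against 1.55%, and groups stood apart for 0 of 10 against 1.03%. Differences ran from -0.26 (Per2) to 0.17 (Ciart), 5 in each direction, and all 10 intervals lay within 2-fold, with outermost bounds of -0.97 (Per2) and 0.78 (Ciart). Het Hit 2 against WT DMSO, which shares libraries with both other comparisons, gave 0 of 10 at an adjusted p of 0.05 against 0.00516% of all genes, 0 of 10 at an unadjusted p of 0.05 against 1.71%, and 0 of 10 with groups apart against 6.32%. The intervals bound the differences of these genes and do not show that the groups were alike.

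Other fits gave no adjusted call of a clock gene either, and their unadjusted counts are set beside the share of all genes in the same fit. DESeq2 gave 0 of 10 at an unadjusted p of 0.05 in each comparison, against 9.29% of all genes in Het DMSO against WT, 2.29% for Hit 2 within heterozygotes and 1.95% in Het Hit 2 against WT. limma with library quality weights, which lets libraries that fit poorly count less, gave 2 of 10 in the genotype comparison against 9.4% of all genes. These were Per2 at 0.49 (unadjusted p = 0.00738, adjusted p = 0.257) and Dbp at 0.29 (unadjusted p = 0.0209, adjusted p = 0.400). It gave 0 of 10 against 5.04% for Hit 2 within heterozygotes, and 2 of 10 against 12.9% in Het Hit 2 against WT, Arntl at -0.29 (unadjusted p = 0.0247, adjusted p = 0.299) and Ciart at 0.41 (unadjusted p = 0.0302, adjusted p = 0.322). With libraries 409 and 411 both left out of the edgeR fit, 2 of 10 in the genotype comparison passed the unadjusted threshold against 5.83% of all genes, Per2 at 0.47 and Dbp at 0.31 (unadjusted p = 0.0191 and 0.0354, adjusted p = 0.655 and 0.801). In that fit the counts were 0 of 10 against 3.72% for Hit 2 within heterozygotes and 1 of 10 against 9.5% in Het Hit 2 against WT, which was Arntl at -0.34 (unadjusted p = 0.0217, adjusted p = 0.399). With the female libraries 425 and 426 left out as well, 0 of 10 passed in each comparison, against 4.18%, 2.61% and 5.25% of all genes in the same order. Arntl then stood at -0.05 and -0.18 in the heterozygous groups against WT, and Per2 in Het DMSO at 0.44. With 10 genes these counts are too small to be set apart from the shares of all genes.

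**Figure D2:**
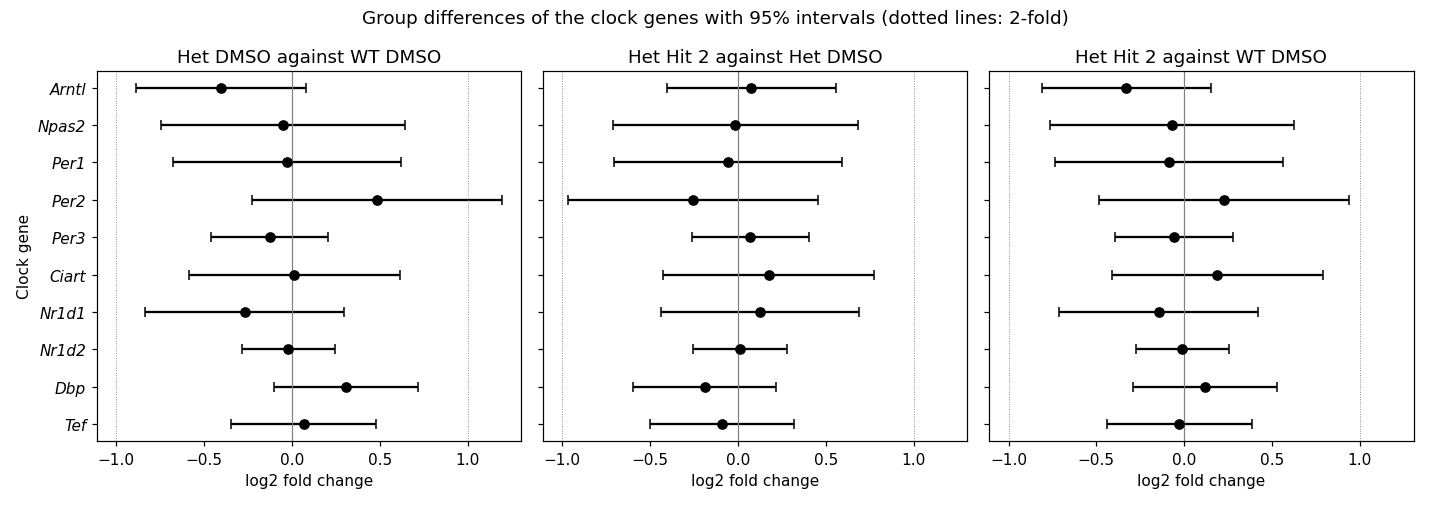
Difference between groups of each clock gene (horizontal axis, log2 fold change; dotted lines at 2-fold) for the 3 comparisons, with points for the edgeR estimate and bars for the 95% interval. Every interval includes 0, and Per2 in Het DMSO against WT, up to 1.20, is the only one to cross a dotted line.

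For all 10 clock genes the range over mice narrowed when libraries 409 and 411 were set aside, by amounts that differed from gene to gene. That each range narrowed was fixed beforehand, because library 411 held an extreme value of each of the 10 genes. The same ranges were not computed over all genes. Library 411 held the lowest level of 9 of the 10 clock genes and the highest of Npas2. Library 409 held the highest level of Per1, Per2, Dbp and Tef and the lowest of Npas2. How many of all genes had their lowest or highest level in these libraries was not counted. Over all 12 libraries the ratio of the highest to the lowest level was 4.26 for Per2, 3.40 for Npas2, 3.22 for Per1, 2.92 for Nr1d1 and 2.65 for Arntl, and over the other 10 libraries it was 1.93, 1.63, 1.75, 1.72 and 1.73. The ratio went from 2.03 to 1.32 for Tef, from 2.01 to 1.51 for Dbp, from 2.50 to 2.04 for Ciart, from 1.65 to 1.39 for Per3 and from 1.36 to 1.30 for Nr1d2. The within-group SD of log2 CPM ran from 0.147 (Nr1d2) to 0.545 (Per2) over 12 libraries beside a median of 0.367 over all genes, and from 0.104 (Nr1d2) to 0.357 (Ciart) over 10 beside 0.196. The cerebellar markers and the mitochondrial share that set 411 and 409 apart stand above, and their part in these levels was not tested.

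**Figure D3:**
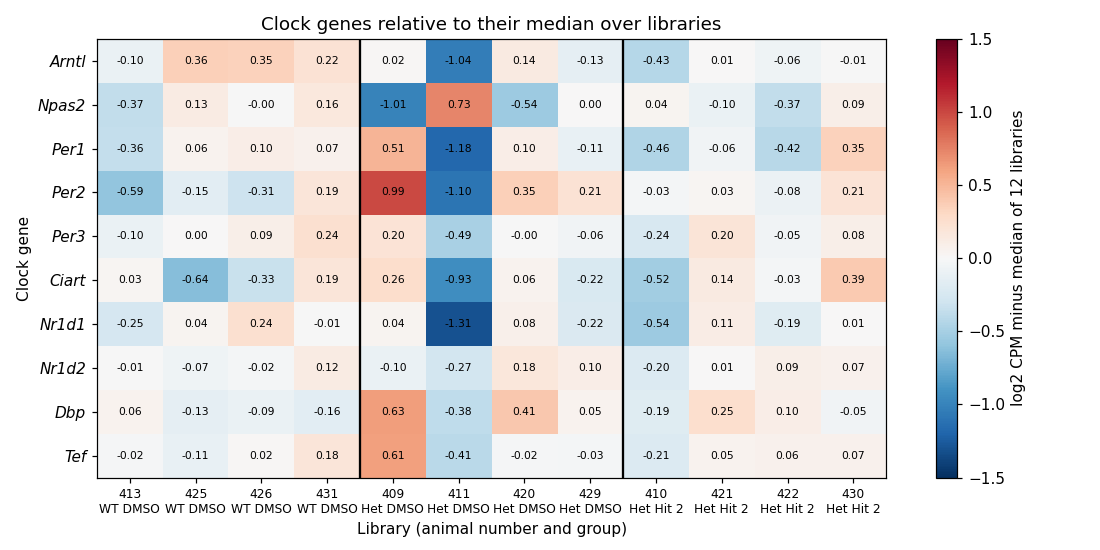
Log2 CPM of each clock gene (rows) minus its median over 12 libraries, for each library (columns, by group); red is above and blue below the median. Column 411 is blue in 9 rows and red in Npas2 (0.73), while column 409 is red in Per2 (0.99), Dbp (0.63) and Tef (0.61) and blue in Npas2 (-1.01).

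Within a library, the ratio of a target to Arntl compares genes that peak at opposite times and does not depend on library size. These ratios are given as a description with no test. The log2 ratio of Dbp to Arntl was 0.28, -0.37, -0.32 and -0.25 in WT libraries 413, 425, 426 and 431. It was 0.74, 0.79, 0.39 and 0.30 in Het DMSO libraries 409, 411, 420 and 429, all above the WT values, and 0.37, 0.36, 0.29 and 0.08 in Het Hit 2 libraries 410, 421, 422 and 430. How many of all genes separate WT from Het DMSO by their ratio to Arntl was not counted. The highest WT value, 0.28, came from the male mouse 413 and lay beside the heterozygous values, while the female mice had the lowest. For Per2 over Arntl the ratios were 0.25, 0.22, 0.08 and 0.70 in WT, 1.71, 0.68, 0.95 and 1.08 in Het DMSO and 1.14, 0.76, 0.71 and 0.95 in Het Hit 2, in the same order of libraries. The 4 Het Hit 2 values were all above the highest WT one, narrowly so at 0.71 against 0.70. The share of all genes with such a separation over Arntl was not counted here either, and Arntl, the shared denominator, had a lower mean in both heterozygous groups than in WT.

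By contrast the ratio of Nr1d1, the repressor, to Arntl, its target, lay between 0.89 and 1.31 in all 12 libraries, a span of 0.42 against 1.16 for Dbp over Arntl and 1.63 for Per2 over Arntl. In 411, where Arntl and Nr1d1 were each at their lowest, this ratio was 0.94, inside the range of WT mice. An index of the mean centred log2 level of the 8 repressor and output genes minus that of Arntl and Npas2 was -0.15 ± 0.19 in WT DMSO, 0.17 ± 0.62 in Het DMSO and 0.07 ± 0.12 in Het Hit 2 (SD, n = 4 each). Library 409 had the highest index, 0.89, and 411 the lowest, -0.60, and the other 10 lay between -0.37 and 0.34. The files hold no time series, so an index cannot be read as an hour, and an earlier or later sampling time cannot be told apart from a difference in level.

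**Figure D4:**
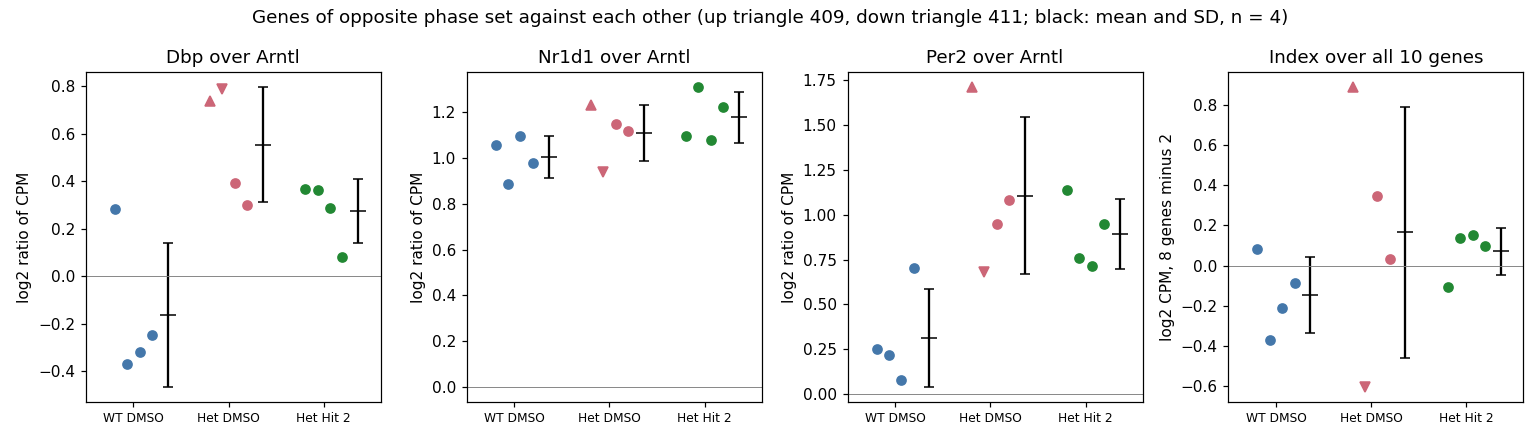
Log2 ratios of Dbp, Nr1d1 and Per2 to Arntl and the index over all 10 genes (vertical axes) in every library of the 3 groups, with 409 and 411 as triangles and the mean and SD of 4 libraries in black. The Nr1d1 panel spans 0.42 in all, whereas 3 of 4 WT values of Dbp over Arntl lie below 0 and every heterozygous value lies above it.

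Whether the genes moved together from mouse to mouse was examined over the 45 pairs, each with Pearson's r, Spearman's rho and a permutation test of 100000 resamples. Over 12 libraries 36 pairs had a positive r, the 9 negative ones all involving Npas2, and 26 passed an adjusted p of 0.05 by r and 8 by rho. Over the 10 libraries without 409 and 411, 39 were positive and 0 passed by either measure, and the median r went from 0.64 to 0.35. With each group's mean subtracted, 40 and 13 pairs passed over the 12 libraries, with p-values that take no account of the 3 means removed.

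By r the closest pair was Arntl and Nr1d1, activator and repressor, which were high in the same libraries. Their r was 0.96 and rho 0.81 over 12 libraries (permutation adjusted p = 0.00135 and 0.0251) and 0.73 without the 2 libraries farthest in Arntl. Over the 10 libraries r was 0.87 and rho 0.81 (permutation p = 0.00121 and 0.00764, adjusted p = 0.0544 and 0.115). By rho over 12 libraries Ciart with Tef (0.87) and Per3 with Tef (0.83) stood above that pair (permutation adjusted p = 0.00900 and 0.022). Over the 10 libraries the rho of these pairs with Tef was 0.81 and 0.71 (permutation adjusted p = 0.115 and 0.152). Dbp and Npas2 ran opposite, with r of -0.92 and rho of -0.91 over 12 libraries (permutation adjusted p = 0.00135 and 0.00585), -0.81 without the 2 farthest in Dbp, and -0.80 and -0.84 over the 10 libraries (adjusted p = 0.0661 and 0.115 by permutation). Dbp and Arntl did not pass, with r of 0.38 over 12 libraries and -0.01 over 10 (permutation adjusted p = 0.234 and 0.980). Arntl and Npas2, the activators, had r of -0.45 and 0.15 (permutation adjusted p = 0.164 and 0.847).

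**Figure D5:**
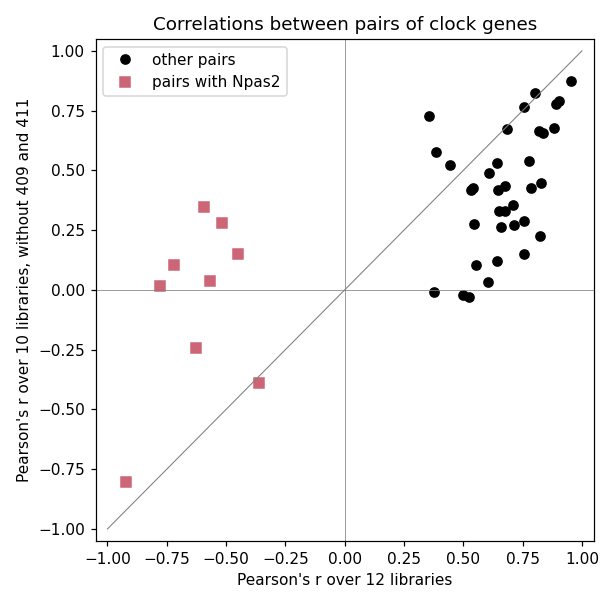
Pearson's r of each of the 45 pairs of clock genes over 12 libraries (horizontal axis) and over the 10 without 409 and 411 (vertical axis), with squares for the pairs that include Npas2 and a line where both are equal. Most points lie below the line on the right, and Dbp with Npas2 (-0.92 and -0.80) and Arntl with Nr1d1 (0.96 and 0.87) are at the ends.

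Other genes of the pathway were taken from fixed lists, chosen with earlier results of these data known. Of 10 further transcription factors and repressors, among them Clock, Cry1, Cry2 and Bhlhe41, 8 kinases, ubiquitin ligases and partners, and 8 rhythmic outputs, 0 passed an adjusted p of 0.05 in any of the 3 comparisons by edgeR. At an unadjusted p of 0.05 in Het DMSO against WT, 7.11% of all genes passed. There 1 of the 10 transcription factors was higher and 1 lower, 2 of the 8 kinases, ubiquitin ligases and partners were higher, and 0 outputs passed. The counts were 0 for all 3 lists in Het Hit 2 against Het DMSO, where 1.55% of all genes passed, and in Het Hit 2 against WT, where 1.71% did. Bhlhe41, an E-box repressor, stood at 60.4 to 66.0 CPM in WT and 70.4 to 77.6 CPM in Het DMSO, groups that did not overlap, as in 4.39% of all genes (log2 difference 0.20, SE 0.09, unadjusted p = 0.0462 and adjusted p = 0.616 by edgeR). In Het Hit 2 against WT, where 6.32% of all genes had groups apart, 1 of the 10 transcription factors lay wholly above WT and 2 lay wholly below. Bhlhe41 was the one above, at 67.5 to 79.2 CPM. Those below, named after their values were seen, were Nfil3, a repressor at D-boxes, at 11.1 to 13.5 CPM against 14.8 to 19.7 CPM in WT, and Hlf, a relative of Dbp and Tef, at 84.0 to 103.2 CPM against 103.4 to 119 CPM. Of the 8 outputs, Nampt, also named after its values were seen, lay wholly below WT (log2 difference -0.18). Rora, which is abundant in Purkinje cells, had a difference of -0.58 in Het DMSO against WT (unadjusted p = 0.0612 by edgeR). Csnk1e and Csnk1d, kinases that set the stability of PER proteins, had differences of 0.42 and 0.30 in that same genotype comparison (unadjusted p = 0.0235 and 0.0439, adjusted p = 0.616 for both by edgeR), with the highest Csnk1e levels in 409 (119 CPM) and 411 (92.4 CPM) against 58.1 to 80.5 CPM elsewhere. Clock, the partner of ARNTL, stood at 48.7 CPM in 409 and 122 CPM in 411 and at 146 to 165 CPM in the other 10 libraries.

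Per1 is also a glucocorticoid target, and 10 glucocorticoid-induced genes were measured beside it. Their summed level was highest in Het Hit 2 library 430 (1214 CPM) and WT library 431 (1011 CPM), with 512 to 791 CPM in the other libraries, and Fkbp5, which buffers the receptor, stood at 87.8 CPM in 430. Per1 in 430 was 240.5 CPM, the second highest of the 12, and in 431 it was 198 CPM. Over the 12 libraries 0 of 10 clock genes passed an adjusted permutation p of 0.05 against this list's score or that of 12 immediate early genes, markers of recent neuronal activity. Against marker scores over 12 libraries, 3 clock genes passed for Purkinje cells, 3 for granule cells, 2 for astroglia and 4 for oligodendrocytes by r and 0 by rho, and over the 10 libraries 0 passed for any list. How many of all genes would pass against these scores was not counted.

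Genes most like the clock index were found by Spearman's rho over the 12 libraries among 16593 genes with a mean of at least 1 CPM. The 5 highest were Gm24671 (rho 0.94), Noc4l (0.93), Adamts15 (0.93), AI480526 (0.92) and Leng8 (0.92), and the 5 lowest were Gm45461 (-0.95), Gm44022 (-0.94), Cetn2 (-0.92), Gm47496 (-0.91) and Ccdc171 (-0.91). In all, 13 genes reached 0.9 and 7 reached -0.9. These are descriptions over libraries that differ in depth and tissue content.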

How the data were processed

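Total RNA from mouse cerebellum was depleted of ribosomal RNA and made into strand-specific libraries from 500 ng with 13 PCR cycles, per the labels' protocols, and read as pairs of 100 bases. The deposited values are raw read counts per gene from STAR 2.7.10a on GRCm39, per the submitters' processing notes, and the column for the reverse strand was used. The annotation release is not given in the sources used here. Of 55401 Ensembl identifiers, 55141 matched a symbol in GENCODE M21, an annotation of GRCm38 used for names and exon lengths; start regions came from RefSeq on GRCm38.p6. Reads that no gene took, 44.7 to 54.6% per library, stayed out of library sizes.

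Counts of 19378 genes kept by filterByExpr were fitted over all 12 libraries with edgeR 4.0.16 (TMM, quasi-likelihood F test, two-sided, Benjamini-Hochberg, 95% intervals from the fit) in R 4.3.3, and the steps were tested on simulated data. Exact two-sided permutation tests used all 70 assignments of 8 libraries. For correlations and scores, a prior count of 2 was added before taking log2 CPM. Alternatives were DESeq2 1.42.0, limma 3.58.1 with quality weights, sva 3.50.0, other factors, filters, strand settings and samples. Leaving out 409, 411 and the female libraries together was chosen after seeing the data.

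All 10 clock genes are named; of other lists, the 3 smallest unadjusted p-values each, with 1 gene not reported here; and the 5 genes at either end of the ranking by the index. The members and lists were chosen with earlier results of these data known.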

Additional observations from a re-analysis of the deposited data

Results flagged for a closer look

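A check of the highest and lowest library in each group of 4 covered 33 sets of values and marked 3, where chance marks about 1 in 20, or 1.65. Per1 in WT DMSO library 413 stood at a log2 CPM of 7.21, with the next WT library at 7.62. Arntl in Het Hit 2 library 410 stood at 5.40, with the next at 5.77. Tef in Het Hit 2 library 410 stood at 8.16, with the next at 8.42. The gaps to the nearest library were 0.911, 0.848 and 0.945 of the group's range. Library 410 also had the lowest summed Purkinje (2861 CPM) and granule cell (4114 CPM) markers after 411, and their part in its Arntl and Tef levels was not tested.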

How the results depend on the processing

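No clock gene passed an adjusted p of 0.05 in any of 720 values, the 30 log2 differences under 24 alternatives. Of these values 636 kept their sign and 84 did not, and 8 of the 30 differences kept it throughout, among them Arntl and Dbp against WT in both heterozygous groups and Per2 in those same comparisons. Adjusted p-values ranged from 0.257 to 1.000. The cause of the changes of sign was not tested.

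In Het DMSO against WT DMSO the sign turned with limma and library quality weights for Nr1d2 0.13 and Tef -0.027. With a minimum mean of 50 reads, it turned for Ciart -0.015. With 1 surrogate variable, it turned for Per1 0.094. With sex as a term, it turned for Per1 0.077, Ciart -0.25 and Npas2 0.025. With 409 and 411 left out, it turned for Per1 0.0090, Nr1d2 0.12 and Tef -0.055. With 409, 411, 425 and 426 left out, it turned for Per1 0.13, Nr1d1 0.069, Nr1d2 0.083, Ciart -0.19 and Tef -0.10. In Het Hit 2 against Het DMSO the sign turned with limma and library quality weights for Arntl -0.015, Nr1d2 -0.10, Tef 0.059 and Npas2 0.084. With 1 surrogate variable, it turned for Npas2 0.088. With RLE factors, it turned for Nr1d2 -0.0063. With DESeq2, it turned for Nr1d2 -0.0057. With no filter, it turned for Npas2 0.0047. With 409 and 411 left out, it turned for Arntl -0.12, Nr1d1 -0.071, Nr1d2 -0.14, Tef 0.016 and Npas2 0.16. With 409, 411, 425 and 426 left out, it turned for Arntl -0.12, Nr1d1 -0.072, Nr1d2 -0.14, Tef 0.015 and Npas2 0.16. In Het Hit 2 against WT DMSO the sign turned with limma and library quality weights for Per3 0.035, Nr1d2 0.029 and Tef 0.031. With 1 surrogate variable, it turned for Per1 0.079, Per3 0.0048 and Tef 0.091. With sex as a term, it turned for Per1 0.019, Ciart -0.078 and Npas2 0.0094. With 409, 411, 425 and 426 left out, it turned for Per1 0.017, Ciart -0.078 and Npas2 0.0068. With each library left out in turn, Het DMSO against WT DMSO ran from -0.28 to 0.23 for Per1, -0.23 to 0.0087 for Per3, -0.092 to 0.070 for Nr1d2, -0.16 to 0.22 for Ciart, -0.17 to 0.22 for Tef and -0.45 to 0.16 for Npas2. With each library left out in turn, Het Hit 2 against Het DMSO ran from -0.33 to 0.19 for Per1, -0.56 to 0.079 for Per2, -0.078 to 0.17 for Per3, -0.15 to 0.20 for Arntl, -0.13 to 0.25 for Nr1d1, -0.092 to 0.080 for Nr1d2, -0.046 to 0.34 for Ciart, -0.26 to 0.13 for Tef and -0.24 to 0.37 for Npas2. With each library left out in turn, Het Hit 2 against WT DMSO ran from -0.29 to 0.0034 for Per1, -0.13 to 0.0082 for Per3, -0.048 to 0.041 for Nr1d2, -0.069 to 0.028 for Tef and -0.17 to 0.020 for Npas2.

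The count of all genes past an adjusted p of 0.05 was 1 in Het DMSO against WT DMSO and became 43 with DESeq2, 98 with limma quality weights, 0 with only the compared groups fitted, 2 with 1 surrogate variable, 18 without 409 and 411, 2 without 409, 411, 425 and 426, and 0 to 9 with each library left out in turn. In Het Hit 2 against WT DMSO it was 1 and became 24, 221, 54, 0, 90, 3 and 0 to 14 in that order, 4 with no filter, 2 with unstranded counts and 0 with sex as a term. Pairs of clock genes past an adjusted p by r went from 26 to 40 with group means subtracted and to 0 without 409 and 411. The alternative with 409, 411, 425 and 426 left out was chosen after seeing the data.

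With 4 mice a group the intervals bound most differences only to within about 2-fold, and the lowest exact p possible is 0.0286. Npas2 rested on 71 to 300 reads per library, the fewest of the members. Both sexes were present only in WT, so the fit with sex as a term rests on 2 WT mice of each sex. No paired analysis was possible because no animal number recurs between groups.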
